A study of Homo sapiens with 6 samples.

Results

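The genes examined here encode the hemidesmosome, the junction that fixes basal keratinocytes to the basement membrane, together with chains of laminin-332, the basement membrane protein it holds on to. They were taken from the deposited table by gene symbol, and all 8 symbols on the list (ITGA6, ITGB4, COL17A1, CD151, DST, PLEC, LAMA3 and LAMB3) were found among its 21462 genes. All 8 had enough counts to be tested, with between 234 and 13280 counts per library.

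RNA was sequenced from control A431 cells (A431CT, genotype WT) and from A431 cells in which DSG2, the gene for the desmosomal cadherin Desmoglein-2, was knocked out by CRISPR/Cas9 (Dsg2KO), with 3 libraries of each. A431 is a human keratinocyte line from an epidermoid carcinoma, and both lines were grown in DMEM with serum and received no further treatment according to the labels. Whether the Dsg2KO line is a single clone is not given in the sources used here, and all 3 Dsg2KO libraries came from that edited line, so Dsg2 loss and any other difference between the lines cannot be told apart. The comparison asks how the anchorage of the cell to its matrix, at the level of RNA, differs when a cell-cell junction component is lost.

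In the hemidesmosome, the integrin made of the α6 and β4 subunits binds laminin-332 outside the cell. Inside the cell, the β4 tail binds plectin, and plectin and the epithelial product of DST tie the complex to keratin filaments. Collagen XVII, a transmembrane collagen, and CD151, a tetraspanin, join the complex in the membrane. Loss of these proteins causes blistering of the skin at the level of the basement membrane, and the same integrin and laminin-332 also serve migrating keratinocytes during wound closure.

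The libraries held between 12845719 and 16255692 counts. Levels are given as CPM, which are counts scaled to a common library size after TMM scaling, and changes as log2 fold changes of Dsg2KO against A431CT cells from edgeR's quasi-likelihood test with Benjamini-Hochberg adjustment over the 12857 tested genes. The level counted on DSG2 was 330, 320 and 319 CPM in A431CT cells and 50.8, 55.1 and 49.7 CPM in Dsg2KO cells. The keratinocyte marker KRT5 was counted at between 554 and 644 CPM in all 6 libraries, but its basal partner KRT14 had at most 2 counts in any library. The 10 keratinocyte markers summed to between 3100 and 3180 CPM in A431CT and between 2880 and 2950 CPM in Dsg2KO libraries. Of the 9 tested, 2 were higher and 3 lower by an adjusted p-value under 0.05, where 14.3% and 15.3% of all tested genes were. None also reached a log2 fold change of 0.5 in size, where 6.03% of all tested genes did. Of 6 fibroblast markers, 5 had at most 3 counts in every library, with COL1A2 and PDGFRA at 0, and their summed level was between 0.157 and 0.368 CPM in A431CT cells and between 0.0611 and 0.469 CPM in Dsg2KO cells. Of 5 melanocyte markers 3 had at most 3 counts in every library, with MLANA at 0, and the list summed to between 17.8 and 18.4 CPM in A431CT and between 14.1 and 16.9 CPM in Dsg2KO libraries. Of the 6 blood and endothelial markers CD3E was at 0. Their sum was between 245 and 252 CPM in A431CT and between 163 and 177 CPM in Dsg2KO libraries. Most of this sum was CD68, at between 236.1 and 240.5 CPM in A431CT and between 147.8 and 161.2 CPM in Dsg2KO libraries. Of the 4 tested, CD68 was lower and 2 were higher by adjusted p-value, against 15.3% and 14.3% of all tested genes. The part of such cells in the results was not tested. In bulk RNA, fewer cells that express a gene and less RNA per cell cannot be told apart.

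The hemidesmosome and laminin-332 genes did not move as a block. LAMA3 was higher in Dsg2KO cells, LAMB3 and PLEC were slightly higher, COL17A1 was lower, and ITGA6, ITGB4, CD151 and DST did not pass the test. Of the 8 genes, 4 had an adjusted p-value under 0.05, where 29.6% of all tested genes, not matched by counts, did. Of these 4, 3 were higher (14.3% of all tested genes) and 1 was lower (15.3%). Only LAMA3 also reached the study's minimum of 0.5 on the log2 scale, so that 1 of the 8 passed both thresholds, where 6.03% of all tested genes did (2.99% higher and 3.03% lower). The median log2 fold change of the 8 genes was 0.03, against -0.0048 for all tested genes. The A431CT and Dsg2KO libraries did not overlap in level for LAMA3 and LAMB3, higher, and COL17A1, lower, which is 3 of 8 genes. Of all tested genes 42.6% showed this (21.2% higher and 21.4% lower).

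**Figure D1:**
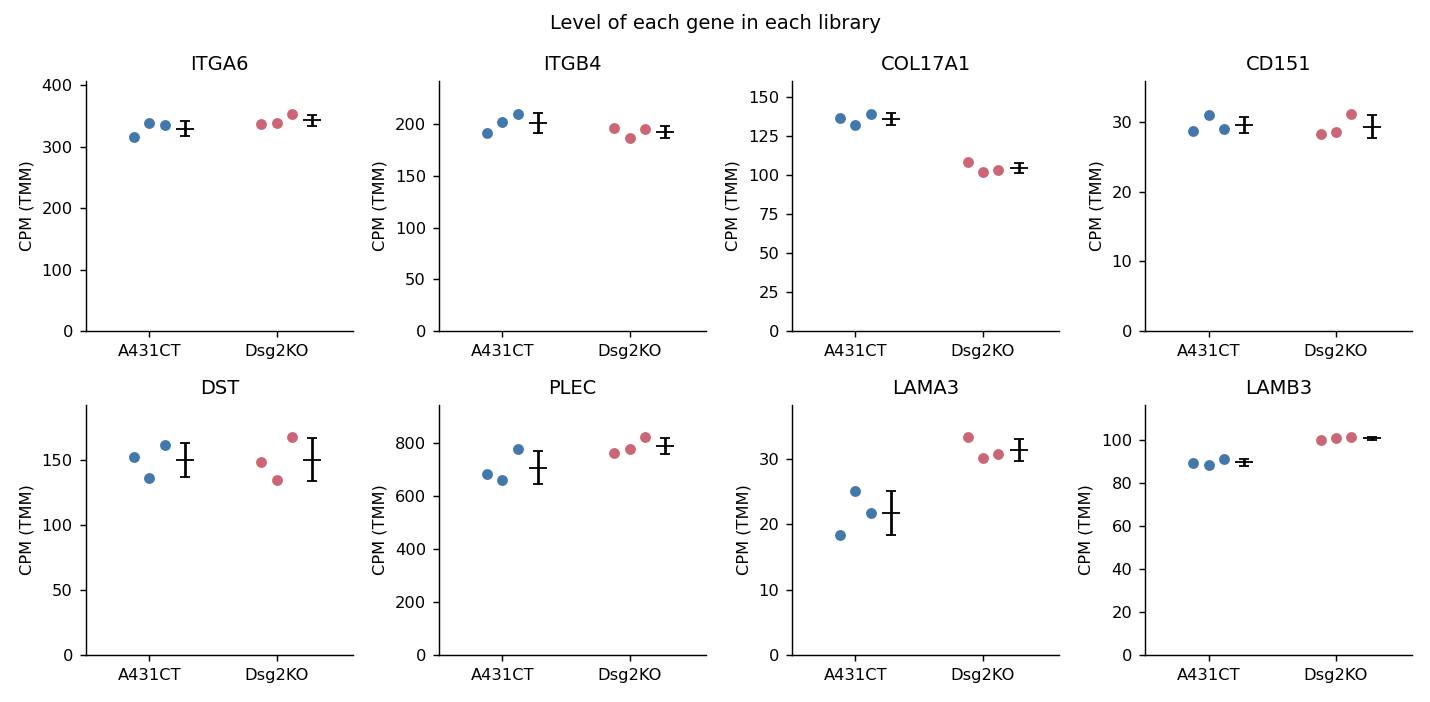
Level of each gene in CPM (vertical axis, from 0) in the 3 A431CT libraries (blue) and the 3 Dsg2KO libraries (red), with the mean and SD of each condition in black. LAMA3 and LAMB3 lie higher and COL17A1 lower in all Dsg2KO libraries, and the libraries of the other 5 genes overlap.

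LAMA3 and LAMB3 encode the α3 and β3 chains of laminin-332. LAMA3 lies on chromosome 18 of GRCh38 from 23689453 to 23956222 on the plus strand. It has a later start at 23873020 that gives the shorter α3A chain found in epidermal laminin-332. Counts per gene do not separate this product from the longer one. LAMA3 was counted at 18.4, 25.1 and 21.6 CPM in A431CT cells and at 33.3, 30.1 and 30.8 CPM in Dsg2KO cells. Every Dsg2KO library was above every A431CT library, and the control libraries were the more scattered. The mean rose from 21.7 ± 3.36 CPM (SD, n = 3) to 31.4 ± 1.67 CPM (SD, n = 3), which is a fold of 1.44. The log2 fold change was 0.53 (standard error 0.10, 95% interval 0.32 to 0.73, adjusted p = 8.12e-04 with edgeR). LAMA3 had the fewest counts of the 8 genes, between 234 and 498 per library, and its coefficient of variation in A431CT cells, 15.5%, was larger than the 5.93% that counting alone gives. Without A431CT replicate 1 its log2 fold change was 0.42, and without Dsg2KO replicate 1 it was 0.49, both under the minimum of 0.5, so that 0 of the 8 genes then passed both thresholds.

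LAMB3, on chromosome 1 from 209614870 to 209652425 on the minus strand, was counted at 89.5, 88.4 and 91.4 CPM in A431CT cells and at 100.2, 100.9 and 101.4 CPM in Dsg2KO cells. Its replicates had the smallest coefficients of variation of the 8 genes, and the conditions did not overlap. These were 1.72% in A431CT and 0.632% in Dsg2KO cells, under the 2.92% and 2.5% that counting alone gives. The spread of these 3 replicates thus understates the error. The rise was small, at 0.17 on the log2 scale (standard error 0.04, adjusted p = 0.0082 with edgeR), or 12.4%.

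The neighbours of these genes on the chromosome were compared with them. The 20 tested genes nearest to LAMB3, which span 206.7 to 211.7 Mb, showed a median change of 0.16 on the log2 scale, with 9 of them higher and 0 lower by adjusted p-value. The change of LAMB3 exceeded that median by 0.0058, which is less than its standard error. Around LAMA3, between 21.7 and 31.1 Mb, the median was 0.05 and LAMA3 exceeded it by 0.48. LAMA3 was therefore higher than its surroundings and LAMB3 was level with them.

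The sequence before the start of LAMA3 and LAMB3 is shown because both genes were higher in Dsg2KO cells, and that of COL17A1 because it was the gene that was lower. RefSeq windows on GRCh38.p14 were at hand for 5 of the 8 genes and not for ITGB4, PLEC and CD151. Each sequence below holds the 250 bases before a start, 5′ to 3′ on the gene's strand, with matches to the AP-1 motif (TGACTCA on either strand) or to the kappa-B consensus (either strand) in capitals. The windows are chr18:23872770-23873019 (plus strand, the α3A start), chr1:209652426-209652675 (minus strand) and chr10:104085881-104086130 (minus strand).
LAMA3: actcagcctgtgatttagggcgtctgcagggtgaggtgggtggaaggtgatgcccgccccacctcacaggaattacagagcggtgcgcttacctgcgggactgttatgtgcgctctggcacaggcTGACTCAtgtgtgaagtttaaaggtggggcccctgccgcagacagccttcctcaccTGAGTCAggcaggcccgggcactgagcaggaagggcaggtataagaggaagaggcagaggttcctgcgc
LAMB3: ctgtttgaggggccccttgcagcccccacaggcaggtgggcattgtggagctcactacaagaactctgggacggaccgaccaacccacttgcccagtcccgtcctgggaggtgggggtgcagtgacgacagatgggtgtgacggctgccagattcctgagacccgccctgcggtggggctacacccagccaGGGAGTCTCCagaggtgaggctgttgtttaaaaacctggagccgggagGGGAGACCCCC
COL17A1: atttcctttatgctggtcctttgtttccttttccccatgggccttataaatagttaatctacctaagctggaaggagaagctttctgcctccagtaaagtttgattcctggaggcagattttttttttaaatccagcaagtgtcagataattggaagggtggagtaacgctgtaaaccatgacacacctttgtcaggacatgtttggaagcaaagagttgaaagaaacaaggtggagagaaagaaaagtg

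The LAMA3 window held the AP-1 motif at 2 places, from 125 to 119 and from 69 to 63 bases before the start, and no kappa-B match. AP-1 is the dimer of Jun and Fos family factors. Of 35116 RefSeq windows of the same length, 4.2% held this motif. The LAMB3 window held no AP-1 motif and 3 kappa-B matches, of which 2 overlapped each other directly before the start, in a motif that 9.96% of all windows held. A further RefSeq start of LAMB3, at 209652329, had the same 3 kappa-B matches, the nearest ending 97 bases before it, and no AP-1 motif. Another, at 209651374, had an AP-1 motif from 67 to 61 bases before it and no kappa-B match. The shares of 4.2% and 9.96% are per window, and a gene with several windows has more places for a match. The COL17A1 window and the windows of ITGA6 and DST held neither motif. These are letter matches, and no binding was measured. Counts per gene also do not show which start of a gene was used.

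COL17A1, on chromosome 10 from 104031286 to 104085880 on the minus strand, encodes collagen XVII, whose outer domain reaches into the basement membrane and binds laminin-332. It was counted at 136, 132 and 139 CPM in A431CT cells and at 108, 102 and 103 CPM in Dsg2KO cells. The conditions were well apart, and the spread between replicates was small in both. The mean fell from 136 ± 3.75 CPM (SD, n = 3) to 104 ± 3.19 CPM (SD, n = 3), a change of -23.2%. Its log2 fold change was -0.38 (standard error 0.04, 95% interval -0.47 to -0.29, adjusted p = 1.35e-05 with edgeR), the smallest p-value of the 8 genes and the 295th smallest of all genes tested. The adjusted p-value was under 0.05 under all 13 alternative fits, with log2 fold changes from -0.40 to -0.36, but none reached the minimum of 0.5. Its 20 nearest tested genes, from 103.1 to 110.5 Mb, showed a median change of 0.07 on the log2 scale, with 4 higher and 0 lower, so COL17A1 fell while its neighbours did not.

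The integrin subunits were close to level. ITGA6, on chromosome 2 from 172427354 to 172506459 on the plus strand, encodes the α6 subunit and was counted at 315, 338 and 336 CPM in A431CT cells and at 338, 339 and 354 CPM in Dsg2KO cells. The conditions overlapped, and the log2 fold change was 0.06 (95% interval -0.02 to 0.14, adjusted p = 0.289 with edgeR). ITGB4, on chromosome 17 from 75721328 to 75757818 on the plus strand, encodes the β4 subunit with its long tail for plectin. It was counted at 192, 202 and 210 CPM in A431CT cells and at 196, 186 and 196 CPM in Dsg2KO cells. Again the conditions overlapped, and the log2 fold change was -0.06 (95% interval -0.15 to 0.03, adjusted p = 0.317 with edgeR). Both intervals lie well inside the minimum of 0.5 in either direction. From gene start to gene end, introns included, ITGB4 overlaps GALK1, a galactose kinase gene, on the opposite strand over 6225 bases. The named library kit does not mark strand, so reads cannot be told apart where exons of both genes coincide. The length of shared exon was not measured. GALK1 had a log2 fold change of -0.06 (adjusted p = 0.615 with edgeR).

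CD151, on chromosome 11 from 832887 to 839831 on the plus strand, encodes the tetraspanin that holds laminin-binding integrins in the membrane. It was counted at 28.8, 30.9 and 29.0 CPM in A431CT cells and at 28.3, 28.6 and 31.2 CPM in Dsg2KO cells. The libraries were interleaved, with a log2 fold change of -0.01 (95% interval -0.16 to 0.14, adjusted p = 0.932 with edgeR). CD151 overlaps POLR2L, an RNA polymerase subunit gene, on the opposite strand over 2476 bases, introns included. POLR2L had a log2 fold change of -0.19 (adjusted p = 0.0121 with edgeR).

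The plakins, which reach from the membrane to the keratin filaments, were PLEC and DST. PLEC, on chromosome 8, encodes plectin and had the highest CPM of the 8 genes. It was counted at 683, 659 and 778 CPM in A431CT cells and at 762, 777 and 821 CPM in Dsg2KO cells. A431CT replicate 3 lay within the range of the Dsg2KO libraries, so the conditions overlapped. The log2 fold change was 0.15 (standard error 0.05, 95% interval 0.05 to 0.26, adjusted p = 0.0322 with edgeR). This call depended on single libraries, since the adjusted p-value was 0.132 without A431CT replicate 1, 0.113 without A431CT replicate 2, 0.064 without Dsg2KO replicate 2 and 0.128 without Dsg2KO replicate 3 (edgeR). The 20 tested genes nearest to PLEC showed a median change of 0.07 on the log2 scale, and the nearest 10 one of 0.16.

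DST, on chromosome 6 from 56457987 to 56954830 on the minus strand, encodes the bullous pemphigoid antigen of the hemidesmosome, but also much longer products of neurons and muscle, and counts per gene do not separate them. It was counted at 153, 136 and 162 CPM in A431CT cells and at 149, 135 and 168 CPM in Dsg2KO cells. The means were equal within their spread, with a log2 fold change of 0.0021 (95% interval -0.15 to 0.15, adjusted p = 0.986 with edgeR). DST varied most between Dsg2KO replicates, with a coefficient of variation of 10.9% where counting alone gives 2.05%.

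**Figure D2:**
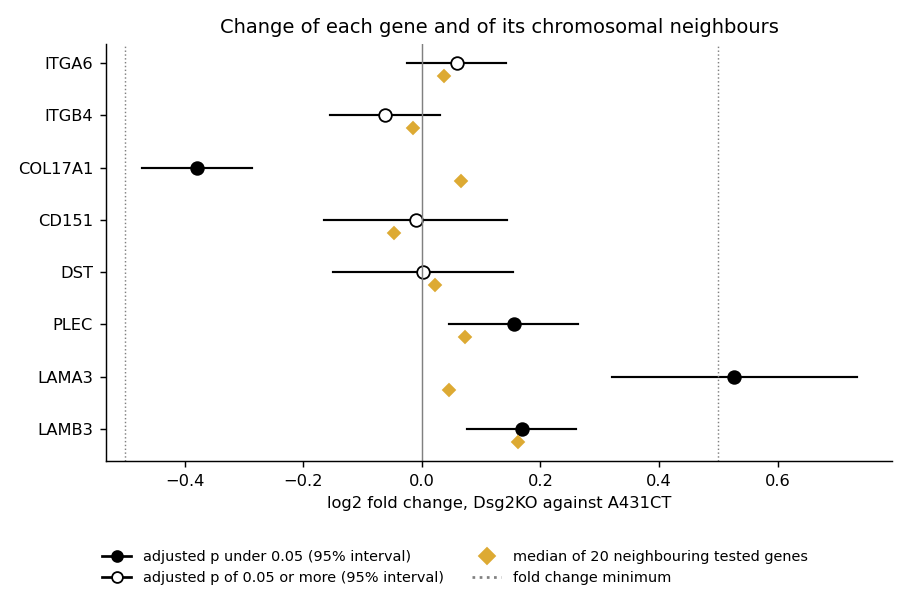
Log2 fold change of each gene with its 95% interval (horizontal axis, Dsg2KO against A431CT), filled where the adjusted p-value was under 0.05, with the median of its 20 nearest tested genes as a diamond. LAMA3, at 0.53, lies past the dotted minimum of 0.5 and to the right of its neighbours, LAMB3 lies on its neighbours, and COL17A1, at -0.38, lies on the other side.

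Because the proteins work as complexes, ratios between partner genes were taken within each library, where library scaling cancels. They were compared with a two-sided exact permutation test over the 6 libraries, in which 3 against 3 cannot give a p-value below 0.1, so no ratio could pass. The count ratio of LAMA3 to LAMB3 was 0.206, 0.284 and 0.236 in the A431CT libraries and 0.332, 0.298 and 0.303 in those of Dsg2KO cells, higher in all Dsg2KO libraries with a log2 difference of 0.37 (exact p = 0.1, adjusted p = 0.1 over 4 ratios). Without A431CT replicate 1 the difference was 0.26.

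The count ratio of COL17A1 to ITGB4 was 0.712, 0.654 and 0.664 in the A431CT libraries and 0.551, 0.548 and 0.527 in those of Dsg2KO cells. The conditions did not overlap, with a log2 difference of -0.32 (exact p = 0.1, adjusted p = 0.1). The ratio of ITGA6 to ITGB4 was 1.65, 1.68 and 1.6 in the A431CT libraries and 1.72, 1.82 and 1.81 in those of Dsg2KO cells, a log2 difference of 0.12 (exact p = 0.1, adjusted p = 0.1). The subunits of the integrin thus differed by little between the conditions although every Dsg2KO ratio was the higher. The log2 ratio of PLEC to DST was higher by 0.16 in Dsg2KO cells (exact p = 0.1, adjusted p = 0.1), and without Dsg2KO replicate 2 the difference was 0.09.

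**Figure D3:**
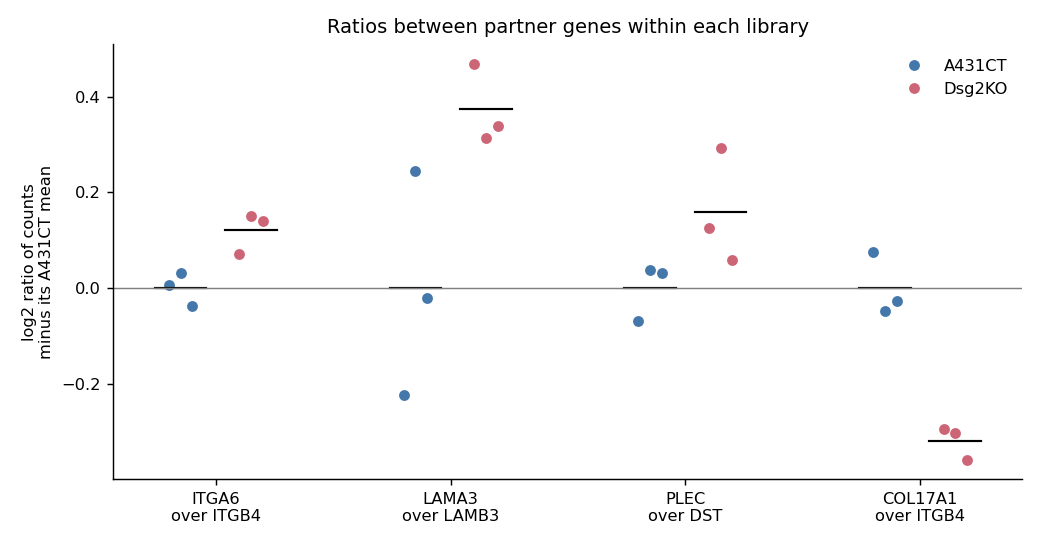
Log2 ratio of counts between partner genes in each library (vertical axis), minus the mean of that ratio in A431CT cells, with points for the A431CT (blue) and Dsg2KO (red) libraries and bars for means. The ratio of LAMA3 to LAMB3 is higher by 0.37 in Dsg2KO cells, and that of COL17A1 to ITGB4 differs by -0.32.

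To compare genes with each other, CPM were divided by the length of each gene's merged exons in GENCODE 44. On this scale of CPM per kilobase, ITGA6 was the highest in A431CT cells, at 49.4 ± 1.87 (SD, n = 3). PLEC followed at 41.6 ± 3.70 and ITGB4 at 29.8 ± 1.38 CPM per kilobase. COL17A1, at 19.5 ± 0.54, and LAMB3, at 19.3 ± 0.33 CPM per kilobase, lay within their spread on this length, but with the longest transcript they stood apart at 24.2 ± 0.67 and 20.8 ± 0.36. CD151 at 7.59 ± 0.31, DST at 3.12 ± 0.27 and LAMA3 at 1.50 ± 0.23 CPM per kilobase were the lowest. In Dsg2KO cells ITGA6 stood at 51.4 ± 1.35 and PLEC at 46.3 ± 1.78 CPM per kilobase, while COL17A1, at 15 ± 0.46, lay under LAMB3 at 21.7 ± 0.14. LAMA3 had the lowest level per length of the 8 genes in both conditions, at 2.17 ± 0.12 CPM per kilobase in Dsg2KO cells. Merged exons count every isoform, and with the longest transcript instead the levels of CD151 and DST in A431CT cells were 15.9 and 6.08 CPM per kilobase. The order of the 8 genes was as before in both conditions. For LAMA3 neither length is that of the shorter α3A product, so its level per length may be understated. The same holds for DST, whose hemidesmosome product is shorter than both lengths used, 48.14 and 24.71 kb. The low places of LAMA3 and DST in the order therefore depend on these lengths.

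Other genes of the basement membrane zone were followed as a list of 19 genes, of which 15 were tested. By adjusted p-value 6 were higher and 5 lower, which is 73.3% of the 15. Of all tested genes 29.6% passed (14.3% higher and 15.3% lower), and of the 9 tested keratinocyte markers 55.6% did. Neither set was matched to the list by counts per gene. Whether the list differs from genes with similar counts was therefore not tested, and the same holds for the lists below. The median log2 fold change of the list was 0.06, against -0.0048 for all tested genes. BCAM, a receptor for laminin α5, rose from 128 ± 7.36 to 187 ± 9.12 CPM (SD, n = 3 each), with a log2 fold change of 0.55 (adjusted p = 1.44e-06 with edgeR). COL7A1, whose product forms the anchoring fibrils under the basement membrane, fell from 2.45 ± 0.26 to 1.19 ± 0.43 CPM, or -1.04 on the log2 scale (adjusted p = 0.0225 with edgeR), on 14 to 35 counts per library. BCAM and COL7A1 were the genes of the list past both thresholds, which 6.03% of all tested genes passed. COL4A2, a chain of the collagen IV network, rose with a log2 fold change of 0.30 (adjusted p = 1.11e-04 with edgeR). AGRN and TINAGL1, which encode the heparan sulfate proteoglycan agrin and a matrix protein of basement membranes, fell by 0.33 and 0.33 on the log2 scale (adjusted p = 2.80e-06 and 1.21e-05 with edgeR). Among the other laminin chains on the list, LAMB1 and LAMC1 rose with log2 fold changes of 0.21 and 0.19, and LAMA5 and LAMB2 had values of 0.06 and 0.04 and did not pass.

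Partners in laminin binding and keratin anchorage made a list of 14 genes with 13 tested, of which 5 were higher and 2 lower by adjusted p-value. This is 53.8% of the 13, against 29.6% of all tested genes, which were not matched by counts. Past both thresholds were 0, against 6.03%. The median log2 fold change of the list was 0.13. ITGA3, whose product pairs with β1 to make the other laminin-332 receptor, rose from 582 ± 10.1 to 712 ± 10.5 CPM (SD, n = 3 each), with a log2 fold change of 0.29 (adjusted p = 8.73e-06 with edgeR). ITGB1, the partner itself, rose by 0.13 on the log2 scale (adjusted p = 0.0085 with edgeR). The receptor subunits α3 and β1 were thus higher, and α6 and β4 did not pass. Whether the receptors differ from each other in their change was not tested. The 95% interval of ITGB1, 0.06 to 0.20, overlaps that of ITGA6, -0.02 to 0.14. PPL, the plakin periplakin, rose with a log2 fold change of 0.22. MACF1, a plakin relative of DST, fell by 0.25 and KRT5 fell by 0.13 on the log2 scale. The tetraspanins CD9, CD81 and CD82, relatives of CD151, had log2 fold changes of -0.08, -0.02 and 0.04 and did not pass.

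Enzymes that process laminin-332 or shed collagen XVII made a list of 12 genes with 8 tested, of which 3 were higher and 2 lower by adjusted p-value. This is 62.5% of the 8, against 29.6% of all tested genes, again not matched by counts. The median log2 fold change of the 8 was 0.11. PLAU, the urokinase that activates plasminogen, rose from 94.1 ± 2.88 to 144 ± 4.68 CPM (SD, n = 3 each), with a log2 fold change of 0.62 (adjusted p = 1.54e-07 with edgeR). PLG, which encodes plasminogen itself, had 0 counts in all 6 libraries. Counts do not show protein from outside the cells, and whether the serum of the medium supplied plasminogen was not measured. TLL2, a tolloid protease, fell by 1.42 on the log2 scale (adjusted p = 0.0078 with edgeR), on 8 to 26 counts per library. FURIN, a proprotein convertase, rose with a log2 fold change of 0.18, and ADAM17, a sheddase, fell by 0.21 (adjusted p = 0.0057 and 0.0495 with edgeR). BMP1 and MMP14, which trim laminin-332 chains, had log2 fold changes of 0.15 and 0.02 and did not pass, and ADAM9 and ADAM10, also sheddases, had values of 0.11 and 0.11, of which only ADAM9 passed (adjusted p = 0.0342 with edgeR).

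Kinases and adaptors that act on the β4 tail made a list of 12 genes, all tested, with 4 higher and 5 lower by adjusted p-value and a median log2 fold change of -0.06. This is 75.0% of the 12, against 29.6% of all tested genes, again not matched by counts. EGFR, which is amplified in A431 cells, was counted at 8445 ± 344 CPM in A431CT and 9129 ± 215 CPM in Dsg2KO cells (SD, n = 3 each), with a log2 fold change of 0.11 (adjusted p = 0.0058 with edgeR). MET, the receptor of hepatocyte growth factor, rose with a log2 fold change of 0.31 (adjusted p = 1.11e-04 with edgeR). PLCG1 and SRC, a phospholipase and a kinase downstream of such receptors, fell by 0.25 and 0.17 on the log2 scale (adjusted p = 0.0025 and 0.0158 with edgeR). None of the 12 passed both thresholds, where 6.03% of all tested genes did.

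**Figure D4:**
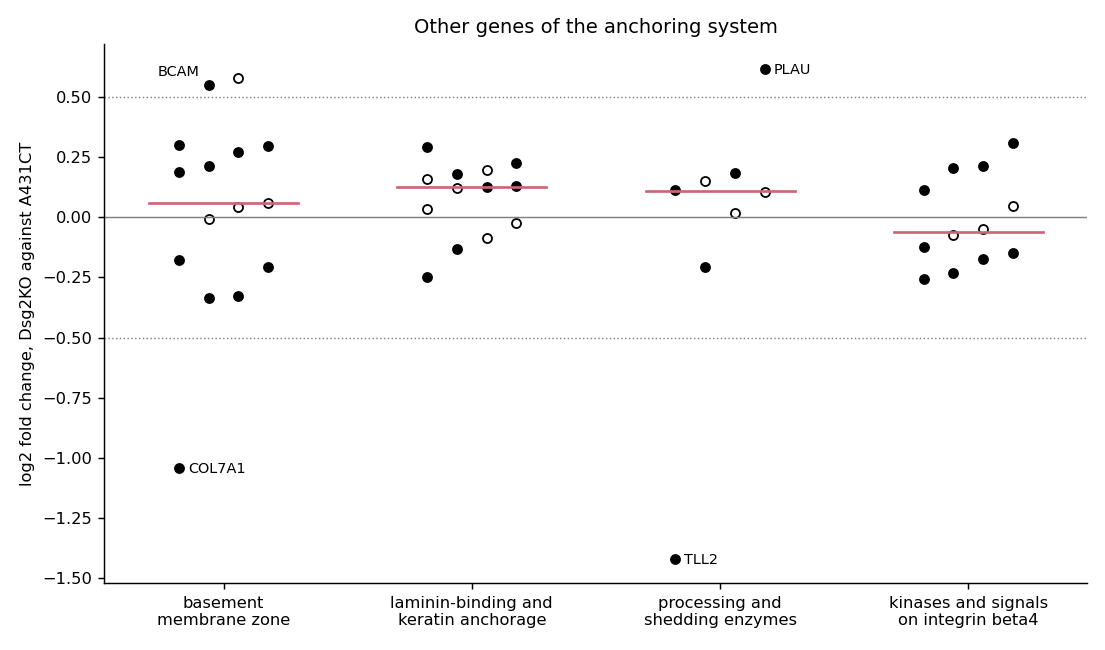
Log2 fold change (vertical axis, Dsg2KO against A431CT) of each tested gene in the lists of related genes, filled where the adjusted p-value was under 0.05, with the median of each list as a red line and the minimum of 0.5 as dotted lines. BCAM, COL7A1, PLAU and TLL2, the genes past both thresholds, carry their names, and COL4A6, at 0.58, did not pass the test (adjusted p = 0.0607 with edgeR). The other values lie between -0.33 and 0.31.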

How the data were processed

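The data are RNA-seq of polyadenylated RNA, 3 libraries each of A431CT and Dsg2KO cells, and the study describes its replicates as independent. After quality trimming, the authors mapped the read pairs to GRCh38/hg38 with CLC Genomics Workbench (version 23) and deposited raw counts per gene symbol without normalization. The gene annotation and strand setting are not given in the sources used here. No per-sample column was left unused.

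Counts were analysed in R 4.3.3 with edgeR 4.0.16 (TMM factors, filterByExpr with a minimum count of 10 and a minimum total count of 15, quasi-likelihood test, no covariates). The study's thresholds defined a called gene, an adjusted p-value under 0.05 together with a change of at least 0.5 in size on the log2 scale. At these depths 3 counts correspond to between 0.184 and 0.236 CPM, which covers counting error only. Replicates differed by more than counting error (chi-square per degree of freedom 2.66 to 4.2). The fit was tested on simulated data. Positions and lengths came from GENCODE 44, which matched 19491 of 21462 symbols by name and chromosome, with 12258 of the tested genes placed. Ratios were tested by exact permutation. The alternatives were RLE factors, total counts, 2 other count filters, DESeq2 1.42.0, the likelihood ratio test, each replicate left out, a replicate block and other fold change minimums.

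The genes and lists were chosen with earlier results of these data known. Named genes were the 8 genes, DSG2, and from each list the called genes and the 2 lowest p-values in each direction, and the 3 genes most like COL17A1. LAMA5, COL4A6, LAMB1, LAMB2, LAMC1, ITGB1, CD9, CD81, CD82, BMP1, MMP14, ADAM9, ADAM10, PLG, the marker genes, GALK1, POLR2L and the motifs were chosen after values were seen. A further gene was taken off the lists and is not reported here.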

Additional observations from a re-analysis of the deposited data

How the results depend on the processing

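With RLE factors, total counts, either other count filter, DESeq2 or the likelihood ratio test, 1 of the 8 genes passed both thresholds, as reported. With each library left out in turn the number was between 0 and 1, and it was 0 without A431CT replicate 1 or Dsg2KO replicate 1. Without a fold change minimum 4 of the 8 genes, 32 genes of the related lists and 3802 of all genes passed. The numbers were 0, 2 and 250 when a log2 change of 1 was required, against 1, 4 and 775 as reported. These follow from the minimum itself. The directions of LAMA3, LAMB3, PLEC and COL17A1 were kept in all 13 alternative fits, and PLEC alone among them lost its adjusted p-value under 0.05, in 4 of the 6 fits that left out a library. The log2 fold change of LAMA3 was between 0.42 and 0.65 with a library left out. Taking off the median of 20 neighbouring genes left LAMB3 at 0.0058. The replicate numbers did not pair the libraries, with correlations of the deviations between equal numbers from -0.0027 to 0.0539, and a replicate block gave 1 of the 8 genes and 769 of all genes, 747 of them shared. COL7A1 and TLL2 were called on at most 35 and 26 counts per library, and their standard errors, 0.32 and 0.36, were the largest among the related genes called.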

Other observations

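Of the markers of other cell types, 4 for blood and endothelium, 2 for melanocytes and 0 for fibroblasts had enough counts to be tested. Of the 4 for blood and endothelium 3 passed both thresholds, where 6.03% of all tested genes did, and of the 2 for melanocytes 0 did. CDH5, the cadherin of endothelial junctions, rose from 4.74 ± 0.82 to 8.03 ± 0.15 CPM (SD, n = 3 each), with a log2 fold change of 0.76 (adjusted p = 0.0035 with edgeR). PECAM1, an adhesion molecule of endothelium, rose from 4.09 ± 0.86 to 5.94 ± 0.06 CPM (adjusted p = 0.0466 with edgeR). CD68, a lysosomal membrane protein used as a macrophage marker, fell from 239 ± 2.38 to 156 ± 7.13 CPM, or -0.62 on the log2 scale (adjusted p = 9.24e-08 with edgeR). The pan-leukocyte marker PTPRC had between 2 and 8 counts per library.

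The genes whose levels followed COL17A1 most closely over the 6 libraries, each centred on its own A431CT mean, were PEF1, FBRSL1 and CPTP. Their root mean square differences from COL17A1 were 0.0233, 0.0236 and 0.0239 on the log2 scale, and their log2 fold changes were -0.37, -0.39 and -0.37. The measure includes the difference between the conditions, so fold changes close to that of COL17A1 follow from the choice.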
